A study of Caenorhabditis elegans with 2 samples.

Results

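The genes described here encode the factors that start and extend protein synthesis in Caenorhabditis elegans. They were chosen by symbol and not by any measured value: protein-coding genes in the Ensembl WBcel235 annotation named eif-, iff-, ife- or eef-, together with egl-45, ifg-1 and inf-1. The rule found 41 genes among the 19973 protein-coding genes on the 6 chromosomes. By role, 32 act in initiation and 8 in elongation. The elongation group holds 6 eef- genes and the eIF5A genes iff-1 and iff-2, which are named as initiation factors and are best known for their work during elongation. The remaining gene, eif-4A3, carries an initiation factor name but encodes the helicase of the exon junction complex, so it was put in neither group.

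Binding of KLU-1, the zinc finger protein encoded by klu-1 (ZK337.2), was followed by ChIP-seq (chromatin immunoprecipitation and sequencing) in a single group of 2 biological replicates. The animals were strain RW12326 (allele st12326), in which CRISPR had placed TY1, EGFP and 3xFLAG tags on klu-1 at its own locus. Synchrony came from starving first-stage larvae after bleaching, and whole L4 larvae were taken at 47 h. Chromatin was sheared by sonication and recovered with an antibody against GFP. An untagged strain and an input library were not analysed here, and the lists hold peaks but no reads, so the depth is unknown. Signal from whole larvae mixes all tissues that express the tagged protein.

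In eukaryotes the initiation factors load initiator tRNA and the capped mRNA onto the small ribosomal subunit. eIF2 carries the initiator tRNA and eIF2B recharges eIF2 with GTP. eIF3 is the large scaffold on the small subunit, and the eIF4 factors recognise and unwind the 5′ end of the mRNA. During elongation eEF1A brings aminoacyl-tRNA to the ribosome, eEF1B recharges eEF1A, eEF2 moves the ribosome along the mRNA and eIF5A helps the ribosome past sequences that stall it, such as runs of proline. KLU-1 is named after the fly zinc finger protein Klumpfuss, a relative of the EGR and WT1 proteins.

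The sequences around 4 summits show the places where the results below turn. They are the strongest peak of any initiation factor gene (eif-3.B), the strongest of the eIF5A pair (iff-2), and those of the 2 eEF1A genes, whose peaks did not pass the authors' threshold. Each runs 5′ to 3′ on the strand of its gene and covers 50 bp to either side of the summit, but that of iff-2 ends where the annotated gene begins. The letters were read from the RefSeq genome of build WBcel235, the assembly the authors call ce11. Capitals mark the motifs, which were searched on both strands. They are the GAGA type element GAGAG, the EGR and WT1 type element GTGGG, and CACCC as found in Krüppel-like factor sites. The windows are chrII:14795109-14795209 (plus strand) for eif-3.B, chrII:8561368-8561458 (minus strand) for iff-2, chrX:7823265-7823365 (plus strand) for eef-1A.2 and chrIII:6972125-6972225 (minus strand) for eef-1A.1.
eif-3.B: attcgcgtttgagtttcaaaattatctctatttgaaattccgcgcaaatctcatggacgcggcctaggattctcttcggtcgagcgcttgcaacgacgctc
iff-2: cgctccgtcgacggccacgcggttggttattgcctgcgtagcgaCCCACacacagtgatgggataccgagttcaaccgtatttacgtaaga
eef-1A.2: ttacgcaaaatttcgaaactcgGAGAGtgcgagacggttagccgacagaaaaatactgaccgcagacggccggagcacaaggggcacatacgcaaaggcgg
eef-1A.1: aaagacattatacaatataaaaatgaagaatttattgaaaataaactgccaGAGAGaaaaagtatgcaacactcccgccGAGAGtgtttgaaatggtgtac
The strongest of the 4 peaks, that of eif-3.B, has none of the motifs in its window, while the eef-1A.2 and eef-1A.1 windows hold 1 and 2 copies of GAGAG. The window of iff-2 holds CCCAC, which is GTGGG read from the other strand.

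Of the 41 translation factor genes, 6 had a summit of the authors' pooled thresholded list within 1000 bp of an annotated transcript start. That is 14.6% of the translation factor genes, against 727 of all 19973 protein-coding genes (3.64%). The 6 genes were eif-3.B, eif-3.C and eif-3.E of eIF3, eif-2alpha of eIF2, the translocase gene eef-2, and iff-2 of eIF5A. No test was made of this share, since there is 1 group and the genes were chosen with results of these data known. A thresholded peak is one that the authors kept for its irreproducible discovery rate (IDR) at 0.01 or lower. The IDR is the estimated chance that a peak does not recur between the peak sets compared. Single replicates have thresholded lists too, so passing does not by itself show a peak in both biological replicates.

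By role, 4 of 32 initiation genes (12.5%) and 2 of 8 elongation genes (25%) had such a peak. With so few genes the groups cannot be ranked: if iff-1 and iff-2 are counted as initiation factors by their names, initiation has 5 genes with a peak and elongation 1. eIF3 contributed 3 of the 12 subunit genes that the symbol rule found, eIF2 1 of 3, eIF5A 1 of 2, and eEF2 is a single gene. None of the 5 eIF2B genes, the 5 eIF4E genes, the 3 eEF1B genes or the 2 eEF1A genes had one. The same held for the genes of eIF1, eIF1A, eIF2A, eIF2D, eIF4A, eIF4G and eIF6, and for eif-4A3. In sets this small, a count of none is near the share of 3.64% over all genes, so it sets no complex apart.

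**Figure D1:**
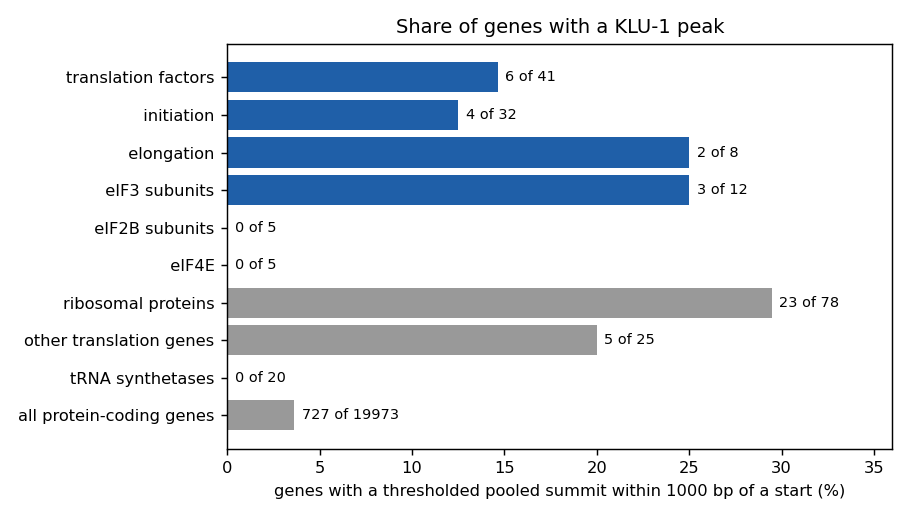
Share of genes (%, horizontal axis from 0) with a thresholded pooled summit within 1000 bp of a start, with counts beside the bars. Translation factors and their subgroups are in blue above the other gene lists and all protein-coding genes in grey. The translation factor bar stands at 14.6% and that of all genes at 3.64%.

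The peaks depended on which list was read. In the conservative version of the pooled list 5 of the 41 genes kept a peak (3.5% of all genes have one there), the one missing being eif-3.E. Replicate 1's own thresholded list gave 4 of the 41 (2.23% of all genes), at eif-3.B, eif-3.E, iff-2 and eef-2. Replicate 2's list gave 1 of the 41 (1.55% of all genes), at eif-3.B. That gene was therefore the single translation factor gene with a thresholded peak in both replicates (1.29% of all genes), and eif-3.C and eif-2alpha passed in neither replicate alone. Read by replicate 2 or by both replicates, the count in the 41 genes is near the background share.

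eif-3.B (WBGene00001225, Y54E2A.11) encodes the b subunit of eIF3. The gene lies at II:14795404 to 14798235 on the plus strand. Its pooled peak, II:14795132 to 14795234, had a signal of 241.0 on the authors' scale and ranked 35 of 1043. Replicate 1 gave 139.8 there and replicate 2 gave 101. Both replicates placed it high, at rank 28 of 566 and rank 50 of 378, and it was 2.54 times as strong as the next translation factor peak. Its summit stood 245 bp upstream of the start, in intergenic sequence with no other protein-coding start within 1000 bp.

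The remaining eIF3 genes with a peak were weaker, and one of them had no peak in replicate 2. eif-3.E (WBGene00001228, B0511.10) encodes a PCI-domain subunit, at I:10640465 to 10642281 on the minus strand. Its pooled signal was 81.8 (I:10642374 to 10642613, rank 477), with 58.0 in replicate 1 and no ranked peak of replicate 2 within 1000 bp of a start. The pooled value thus stood beside a peak of 1 replicate, and its summit lay 213 bp upstream of the gene. eif-3.C (WBGene00001226, T23D8.4), the gene of the c subunit at I:9976426 to 9979662 on the minus strand, had a pooled signal of 80.7 (I:9979779 to 9980018, rank 494). Its replicates gave 44.0 and 34.5, similar values that did not pass in either list, and the summit lay 237 bp upstream.

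Among the 9 other eIF3 genes the strongest ranked peak, meaning the strongest in the authors' full list of 128328 candidate peaks, ran from 22.6 at eif-3.L to 44.1 at eif-3.I. egl-45, the gene of the largest subunit eIF3a, had 33.5, and its summit lay nearer to the start of kcmf-1. Signals were 34.7 at eif-3.J, 32.1 at eif-3.D, 28.3 at eif-3.F, 28.0 at eif-3.H and 26.8 at eif-3.K. At eif-3.F, eif-3.H, eif-3.K and eif-3.L replicate 1 had no ranked peak within 1000 bp of a start. None of these 9 genes had a thresholded peak. At eif-3.G, an RNA-binding subunit gene with 25.8, a thresholded summit of signal 64.8 lay 1068 bp from its nearest start, just outside the distance used. The median over the 12 eIF3 genes was 32.8, and 32.1 without eif-3.B.

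For eIF2, the carrier of initiator tRNA, only the gene of the alpha subunit passed. eif-2alpha (WBGene00021351, Y37E3.10) encodes the subunit that stress kinases phosphorylate, and lies at I:2072680 to 2076925 on the plus strand. Its signal of 73.2 (I:2071998 to 2072237, rank 607) was the lowest of the 6, with 35.5 in replicate 1 and 28.7 in replicate 2. The summit was also the farthest from its gene, 562 bp upstream, and it fell inside a coding exon of the neighbouring prohibitin gene phb-1, 766 bp downstream of the phb-1 start. The gamma subunit gene eif-2gamma had 48.0, with 32.8 in replicate 1, and the beta subunit gene eif-2beta had 29.2, with 18.2 in replicate 1. At neither of these did a replicate 2 peak overlap the pooled one.

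The genes of eIF2B, the exchange factor of eIF2, had signals of 59.5 at eif-2Bgamma, 52.3 at eif-2Bbeta, 35.4 at eif-2Bdelta, 30.6 at eif-2Bepsilon and 23.9 at eif-2Balpha. The highest of them also had the highest −log10 IDR of the 5, at 1.68. At eif-2Bgamma the summit lay 879 bp upstream on a tRNA gene, sup-39, and 65.5% of the 31-mers around it occur once in the genome, the lowest share over the 41 genes. Its replicates gave 38.7 and 20.1. At eif-2Bbeta both replicates gave 25.1, and the start of Y47H9C.8 was nearer to the summit than that of eif-2Bbeta. How far the small RNA gene or the neighbouring start accounts for these signals was not tested.

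The cap-binding eIF4E genes form the largest set of paralogs among the initiation genes, and none had a thresholded peak. Their signals were 41.5 at ife-1, 41.4 at ife-4, 36.6 at ife-5, 34.8 at ife-3 and 20.1 at ife-2. In the pooled list all but ife-2 were above the median of all genes, and none reached the top 10% of genes. In replicate 1 alone ife-5 had 35.9, at percentile 95.9 of all genes with a ranked peak there. In replicate 2 it had 26.1, at percentile 85.6. For ife-2 no ranked peak of replicate 2 lay within 1000 bp. At ife-1 the summit fell in a coding exon of dro-1 with the dro-1 start nearer, while at ife-2, ife-3, ife-4 and ife-5 it fell in a coding exon of the gene itself. The partners of eIF4E stood close to them, with 34.7 at ifg-1, the scaffold gene eIF4G, and 33.1 at inf-1, the helicase gene eIF4A. The inf-1 summit lay 793 bp downstream of its start, in intergenic sequence 25 bp from the start of byn-1.

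Of the remaining initiation genes, eif-6 had the strongest signal of any translation factor gene that did not pass. It encodes the factor that keeps the large ribosomal subunit from joining too early. Its pooled signal was 62.5, with 34.7 and 23.1 in the replicates, at a summit 867 bp downstream of its start in its own coding exon and nearer to the start of gale-1. A thresholded summit of signal 78.3 lay 1993 bp from its nearest start. The factors of non-canonical initiation eif-2D and eif-2A had 49.8 and 28.3. The scanning factor genes eif-1 and eif-1.A were at the low end, with 23.2 and 11.7, and eif-1.A was the lowest of the 41 in the pooled list. Its strongest replicate peaks, 4.89 and 7.56, were at other positions within 1000 bp. They were the lowest in each replicate among those of the 41 genes with a ranked peak there. The exon junction gene eif-4A3 had 53.6, with 33.8 in replicate 1 and 21.8 in the replicate 2 peak overlapping it, and its summit lay 82 bp from the start of vps-20, nearer than its own.

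Among the elongation genes, eef-2 (WBGene00001167, F25H5.4), the gene of the translocase, had the strongest peak. It lies at I:9163531 to 9166952 on the plus strand. The pooled signal was 95.05 (I:9163399 to 9163638, rank 336), with 41.8 in replicate 1 and 48.7 in replicate 2. Replicate 2 had the higher value although the peak passed in replicate 1 alone, where it ranked 487 of 566. The summit stood 12 bp upstream of the start, the closest of the 6, and 253 bp upstream of the divergent gene clsp-1.

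The eIF5A genes differed from each other. iff-2 (WBGene00002065, F54C9.1), expressed in somatic tissue, had a pooled signal of 89.6 (II:8561288 to 8561527, rank 385) in front of a gene at II:8559375 to 8561367 on the minus strand. Replicates 1 and 2 gave 54.4 and 34.5 there, and the summit lay 41 bp upstream of the start, shown above in its sequence window. iff-1, expressed in the germline, had 35.4 at a summit 550 bp downstream, with 27.2 in replicate 2. The replicate 1 peak overlapping that summit had 14.4, and the strongest replicate 1 peak at iff-1, with 25.1, was a different one at -378 bp. In the pooled list and in each replicate iff-2 was the higher of the pair. The difference was not tested, since each gene has 1 pooled value.

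The eEF1A genes, which encode nearly the same protein, both stayed below the threshold. eef-1A.2 had a pooled signal of 55.5 with its summit 339 bp upstream, and replicates of 25.8 and 30.2. eef-1A.1 had 43.7 with its summit at -463 bp, again upstream, and replicates of 26.2 and 17.7. The summit of eef-1A.2 was nearest to its own start, whereas that of eef-1A.1 lay 78 bp from the start of rfc-4. All 31-mers around both summits occur once in the genome, so the 2 sites can be told apart by sequence. The eEF1B genes were lower, with 36.1 at eef-1G, 30.9 at eef-1B.2 and 29.4 at eef-1B.1, and the eef-1G summit lay on a small RNA gene.

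**Figure D2:**
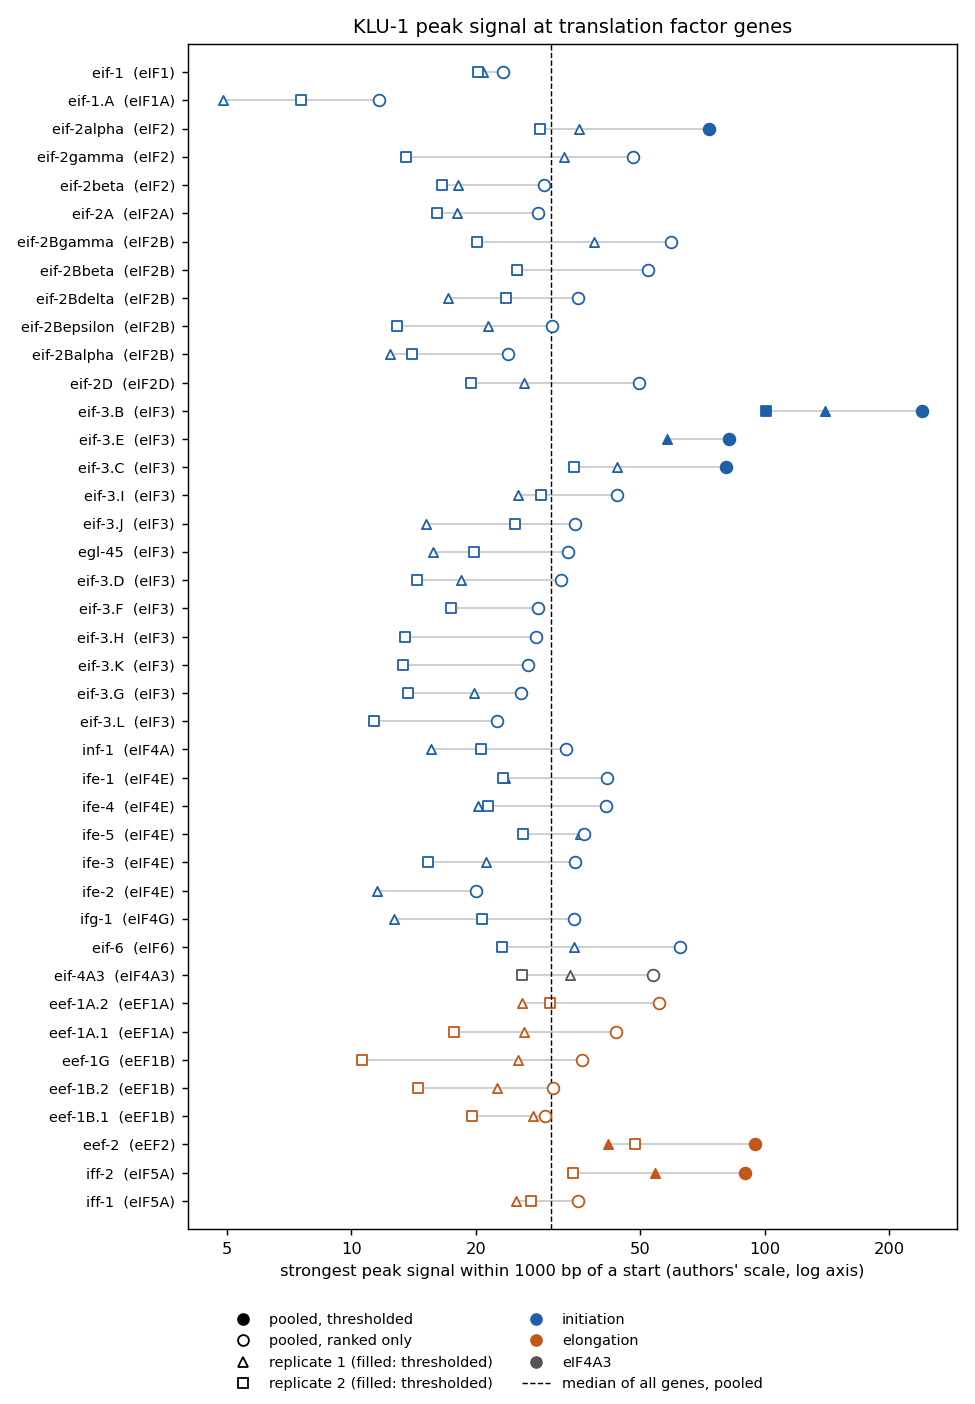
Strongest peak signal within 1000 bp of a start (authors' scale, log axis) for each of the 41 genes, grouped by complex, in the pooled list (circles), replicate 1 (triangles) and replicate 2 (squares), with filled symbols for thresholded peaks. In the pooled list eif-3.B at 241.0 stands apart on the right and eif-1.A at 11.7 on the left. The circles of 29 of the 41 genes lie above the dashed line, the pooled median of all genes at 30.5. That line is not a reference for the replicate symbols.

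Taking the strongest ranked peak whether or not it passed, all 41 genes had one, as did 92.95% of all genes. The median over the 41 genes was 35.4, against 30.5 over the 18565 genes with a ranked peak, and 29 of the 41 lay above that second value. The median percentile of the 41 among all genes was 67.6. Initiation genes had a median of 34.7 and elongation genes 39.9. In the top 10% of genes were 13 of the 41, and 8 were in the top 5%. Both counts include the 6 genes with thresholded peaks, so they are not independent of the counts above. The number of ranked peaks in reach was the same as elsewhere, with a median of 3 per gene for the 41 and for all genes. No peak served as the strongest of more than 1 of the 41 genes.

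The margin between genes that passed and those that did not was narrow. The lowest signal among the 6 was 73.2 at eif-2alpha, with a −log10 IDR of 2.27, and the highest among the other 35 was 62.5 at eif-6, with 1.74. eif-4A3 had the highest −log10 IDR of the 35, at 1.80, where 2 is the threshold. Of the 97 peaks that reach the threshold but are missing from the authors' thresholded list, none lay within 1000 bp of a translation factor gene. The 6 peaks were of ordinary strength for peaks at genes, with a median signal of 85.7 against 86.5 over the 727 genes with a thresholded peak.

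The thresholded peaks lay in front of their genes. All 6 summits lay upstream of their gene, against 567 of the 727 genes with a peak (78.0%), and the median position was -225 bp for the 6 and -197 bp for the 727. For all 6 the gene's own start was the nearest protein-coding start, which was so for 545 of the 727 (74.97%). 5 of the 6 were intergenic, and the exception was the eif-2alpha summit in phb-1. Among the 35 genes without a thresholded peak, 13 summits were upstream and 22 downstream, against 46.0% upstream among the 17838 genes with ranked peaks alone. Of these 35 summits 22 fell in coding exons, 18 of them exons of the gene itself, and in 14 cases another gene's start was nearer. Most of these weaker summits thus lay inside annotated exons. An exon summit can still lie in front of another gene, as at eif-6, 426 bp upstream of the gale-1 start. The exon and nearest-start counts of the 35 have no share over all genes beside them, so they are not set apart from the background.

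**Figure D3:**
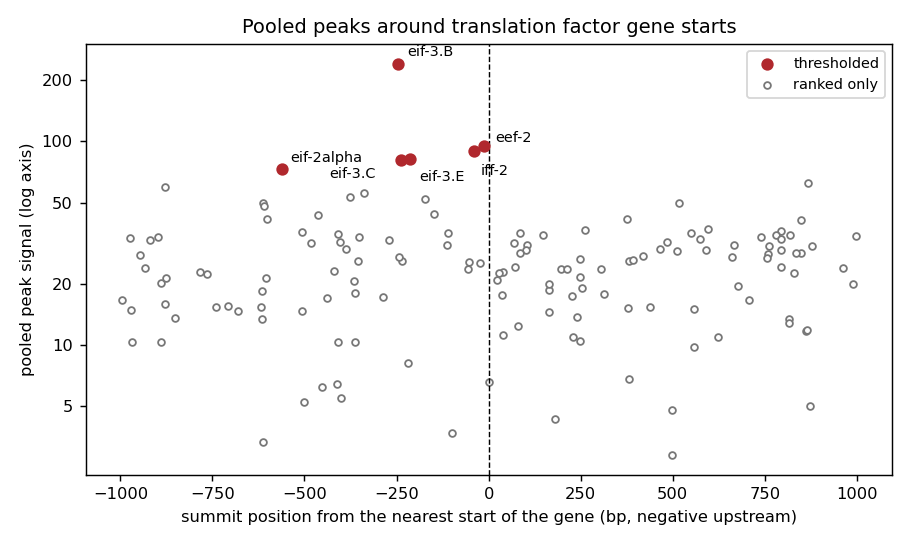
All 145 ranked pooled peaks within 1000 bp of the 41 genes, by summit position relative to the nearest start of the gene (bp, negative upstream) and signal (authors' scale, log axis). The 6 thresholded peaks (filled) lie on the upstream side between -562 and -12 bp with signals from 73.2 to 241.0, and the other peaks (open) are spread over both sides.

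Where both replicates had a ranked peak at a gene, their signals followed each other in part. This was so for 35 of the 41 genes, with 37 having a peak in replicate 1 and 39 in replicate 2. The strongest peak of each replicate overlapped the pooled peak in 14 of the 35, and in the others at least 1 replicate value came from another position. Over the 35 genes Spearman's rho was 0.526 and Pearson's r of the log2 signals 0.76, as a description across genes that share the same 2 libraries. Without eif-3.B they were 0.483 and 0.64 (34 genes), and over all 14499 genes with a peak in both they were 0.324 and 0.471. Replicate 1 had the higher signal at 23 of the 35 genes, against 40.3% of all genes. The median log2 difference, replicate 1 minus replicate 2, was 0.31 over the 35 genes and -0.14 over all genes. Signals of the replicates come from separately called lists on an unstated scale, so a shift between them is no measure of binding.

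The distance between replicate summits overlapped between genes whose pooled peak had passed and those whose peak had not. In the 5 genes with a thresholded peak and a peak of each replicate overlapping it, the replicate summits were 4 to 51 bp apart, with a median of 22 bp. In the 20 such genes without a thresholded peak they were 1 to 88 bp apart, with a median of 54 bp. The closest of all was thus at a gene that did not pass, eif-3.I.

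**Figure D4:**
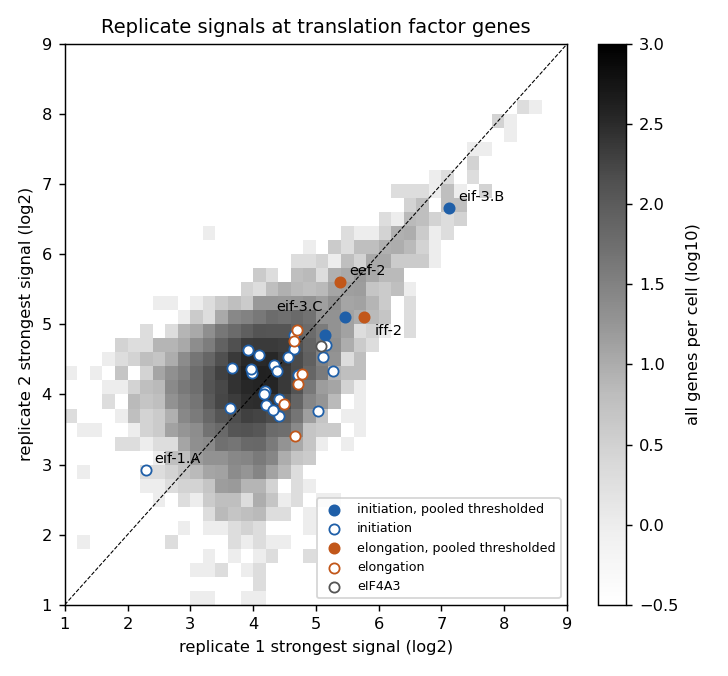
Strongest signal at each gene in replicate 1 (horizontal) and replicate 2 (vertical), both log2 of the authors' scale, for the 35 translation factor genes with a peak in both (points) over all 14499 such genes (grey, log10 of genes per cell). eif-3.B is at the upper right, eif-1.A at the lower left, and eef-2 is the one filled point above the diagonal.

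The 6 genes were on chromosomes I and II alone, which carry 24 of the 41. Chromosome I held 12 translation factor genes, of which 4 had a thresholded peak (33.3%), against 4.86% of all genes there. Chromosome II held 12, of which 2 had one (16.7%), against 138 of 3449 genes there. The 17 translation factor genes on the other chromosomes had none. Over all genes the share was 5.42% on III, the highest of any chromosome, 3.47% on IV, 2.52% on V and 2.42% on X. For so few genes, a count of none is near those shares. The median ranked signal was 52.9 for the 12 genes on chromosome I, against 31.8 for all genes there, and 32.6 for the 12 on chromosome II, against 30.4. The chromosomes without a thresholded peak had medians of 33.3 for the 8 genes on III, 21.3 for the 2 on IV, 35.1 for the 4 on V and 41.4 for the 3 on X. The median on chromosome II was thus below those on III, V and X, where no translation factor gene passed. On chromosome I 8 of the 12 were in the top 10% of genes, on chromosome II 4 of 12 and on chromosome X 1 of 3.

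The 6 summits were near the other thresholded peaks in base composition. A motif lay in 2 of the 6 windows, which are too few to be set apart from the shares over all thresholded peaks. Within 50 bp of the 6 summits the GC content was 46.5% to 56.4% with a median of 51.0%, against 49.5% over the 1043 thresholded peaks. The 35 genes without a thresholded peak had a median of 42.6%, and all ranked peaks 38.6%. GAGAG and CACCC were in none of the 6 windows and GTGGG in 2, those of iff-2 and eif-3.C. Over all thresholded peaks GAGAG is found in 32.9%, GTGGG in 20.5%, CACCC in 15.4% and any of the 3 in 52.7%. Of the 35 genes without a thresholded peak, 7 had GAGAG, 1 GTGGG and 6 CACCC in their windows, and 13 had at least 1 of them. Over all ranked peaks 14.99% hold GAGAG, 9.55% GTGGG, 8.11% CACCC and 27.9% any of them. A match is only a run of letters in a short window, and its absence says nothing about what KLU-1 can bind.

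Small RNA genes were not close to the 6 summits. The nearest tRNA, snRNA or snoRNA gene was 636 bp away, at iff-2, and all 31-mers around the 6 summits occur once in the genome. Among the 35 other genes 2, eif-2Bgamma and eef-1G, had such a gene within 200 bp of the summit. With all peaks near small RNA genes removed, the same 6 genes had a thresholded peak, against 3.01% of all genes.

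Other genes of protein synthesis, listed by function, gave a mixed picture beside the translation factors. Ribosomal protein genes had a thresholded peak at 23 of 78 (29.5%), with a median ranked signal of 44.0. The cytoplasmic aminoacyl-tRNA synthetase genes had none in 20, with a median ranked signal of 34.2. For 20 genes, a count of none is near the share of 3.64% over all genes. Of 29 other translation genes on the list 25 were found in the annotation, and 5 of them (20%) had a thresholded peak. These were ifet-1, the gene of the eIF4E-binding protein related to 4E-T (143.8, replicates 72.5 and 73.0), the mitochondrial elongation factor genes tufm-2 (127.0, replicates 63.8 and 69.1) and gfm-1 (109.3, replicates 66.9 and 43.2), the ABC-F ATPase gene abcf-2 (109.1, replicates 67.2 and 49.3) and larp-1, the gene of a La-related RNA-binding protein (98.4, replicates 65.9 and 38.4). Only at gfm-1 was the gene's own start the nearest. The summits at ifet-1, tufm-2, abcf-2 and larp-1 were nearest to the starts of rps-1, exoc-7, ant-1.1 and wip-1. For all 6 translation factor peaks the nearest start was that of their own gene, although the eif-2alpha summit fell inside phb-1.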

How the data were processed

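Peak lists on assembly ce11 were used as deposited: a pooled and a conservative thresholded list, their ranked lists, and a thresholded and a ranked list per replicate. The peak signal is the strength given by the authors' peak caller, on a scale not stated. The −log10 of the irreproducible discovery rate is the authors' own value, from the deposited ranked lists. The deposited file notes name the replicates' alignments and an input of unstated role. Aligner and peak caller names and versions: not given in the sources used here. In each of the 2 pooled ranked lists 8 columns without a sample name (16 in all) were not used. The ranked list that holds all 1043 thresholded peaks was read.

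All peaks lay within the chromosomes of WBcel235. Genes and starts came from Ensembl release 115, locus names and sequence from RefSeq. A gene had a peak if a summit lay within 1000 bp of any of its transcript starts. The strongest by signal was taken, and its position was signed by the strand of the gene. Motifs were read within 50 bp of summits, and unique 31-mers within 100 bp. Values were computed with Python 3.11.15, pandas 2.3.3, NumPy 2.4.6 and SciPy 1.17.1, and the assignment was tested on simulated data. No significance test was made. Named are all genes with a thresholded peak, the next 5 by signal, the eEF1A, eIF5A, eIF4E and eIF3 genes, and listed translation genes with a peak. Further gene names were added with their values in view. The genes, lists and alternatives were chosen with earlier results of these data known. The alternatives were distances of 500 and 2000 bp, the conservative list, each replicate alone, the nearest or outermost start, the stronger part of the list, peaks near small RNA genes left out, another class for eIF5A, an overlap rule for replicates and a wider motif window.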

Additional observations from a re-analysis of the deposited data

How the results depend on the processing

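Of 45 alternative values, 34 stayed within the limits set for a change and 11 moved. Leaving out a replicate moved most. Reading 1 replicate's list alone gave 1 to 4 translation factor genes with a thresholded peak, 1 to 2 initiation genes, 0 to 2 elongation genes and 1 to 2 eIF3 genes, where the low values are those of replicate 2, with eif-3.B alone. The median ranked signal was 25.1 in replicate 1's list and 20.1 in replicate 2's, where the medians of all genes were 16.6 and 18.4. Within 500 bp it was 30.9 and within 2000 bp 41.4, with no all-gene value beside them. A wider distance can only keep or raise the strongest peak of a gene. With eIF5A counted as initiation, elongation had 1 gene. In the conservative list the median summit position was -237 bp. Within 500 bp eif-2alpha was lost (5 genes, against 2.58% of all genes). Within 2000 bp eif-3.G and eif-6 were added (8 genes), and the share of all genes rose as well, to 5.63%. In the stronger part of the list eif-2alpha was lost (5 genes, against 2.15% of all genes). Using the nearest or the outermost start, the same 6 genes had a peak, against 2.79% and 3.30% of all genes. Within 100 bp of the summit 3 of 6 had a motif, against 69.0% of all thresholded peaks. No paired analysis was possible because the study has 1 group and no result comes from a test. With 2 replicates and no read counts, no precision could be given to a single signal, and a missing peak at unknown depth does not show that KLU-1 is absent.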
